A study of Mus musculus with 6 samples.

Results

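The spermatid endoplasmic reticulum (ER) folding chaperones were taken as 10 named genes, and all 10 of them were found among the 38715 genes of the expression table. They are Clgn, Calr3 and Pdilt, which are forms made mainly in the testis, their widely expressed paralogs Canx, Calr and P4hb, the general ER chaperones Hspa5 and Hsp90b1, and Ddit3 and Xbp1, which mark the unfolded protein response. The data were RNA-seq of whole mouse testis, with 3 libraries titled Middle and 3 titled Control. Middle was read as the group exposed to MES, since the design text names an exposed and a control group and the titles name only these. The meaning of MES, its dose, and the strain and age of the mice are not stated in the sources used here. No label ties a library to its own animal, and p-values here measure the spread between libraries, which may be technical. The title of the series is about early exposure and testosterone, and the labels put no question about ER folding.

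New secreted and membrane proteins enter the ER, where calnexin and calreticulin hold glycoproteins by their sugar chains, disulfide isomerases set their cysteine bridges, and the HSP70 and HSP90 types of the ER keep exposed chains from clumping. When unfolded proteins build up, the unfolded protein response raises these helpers through factors such as XBP1, and DDIT3 (CHOP) when the stress lasts. In mice, spermatids carry testis forms of 3 of these helpers, and males without Clgn, Calr3 or Pdilt are infertile or nearly so, with sperm that lack ADAM3 on their surface or bind eggs poorly.

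The libraries held 46649138 to 56435498 reads over genes in Middle and 38820385 to 58389391 in Control. Values were in RPKM, reads scaled to gene length and library size, so levels of different genes may be compared. All 10 genes passed the filter (mean of 1 RPKM or more in either group), with 306 to 71085 reads in a library. Middle replicate 1 stood apart: the chi-square per degree of freedom between libraries was 34.4 and 24.7 for its pairs with the other Middle libraries, against 10.98 for the remaining Middle pair and 6.26 to 10.2 for the Control pairs.

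No folding gene passed the test of Middle against Control (adjusted p 0.178 to 0.988, limma-trend with Benjamini-Hochberg adjustment over 15040 genes, threshold 0.05), where 0.0532% of all tested genes did, 0.00665% higher and 0.0465% lower in Middle. With an unadjusted p under 0.05, 2 genes were higher and 3 lower in Middle, 5 of 10 against 20.7% of all tested genes (11.7% higher and 9.02% lower). That count was 3 without Control replicate 1, where 9.58% of all tested genes had such a p, and 7 without Middle replicate 2, where 26.0% did. Middle and Control libraries were fully apart for 4 of the 10, 2 higher (Xbp1, P4hb) and 2 lower (Clgn, Pdilt), against 29.3% of all tested genes, 17.9% higher and 11.4% lower. With fewer libraries to compare, 6 genes were apart without Middle replicate 1 or without Control replicate 2 (37.4% and 42.3% of all tested genes). The count was 7 without Middle replicate 2 (46.4%) and 5 without Control replicate 1 or without Control replicate 3 (33.8% and 39.0%). Without Middle replicate 3 it was 4 of 10, against 40.5% of all tested genes. All 3 testis paralogs had lower means in Middle, while the common paralogs were split, with Canx lower and Calr and P4hb higher.

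**Figure D1:**
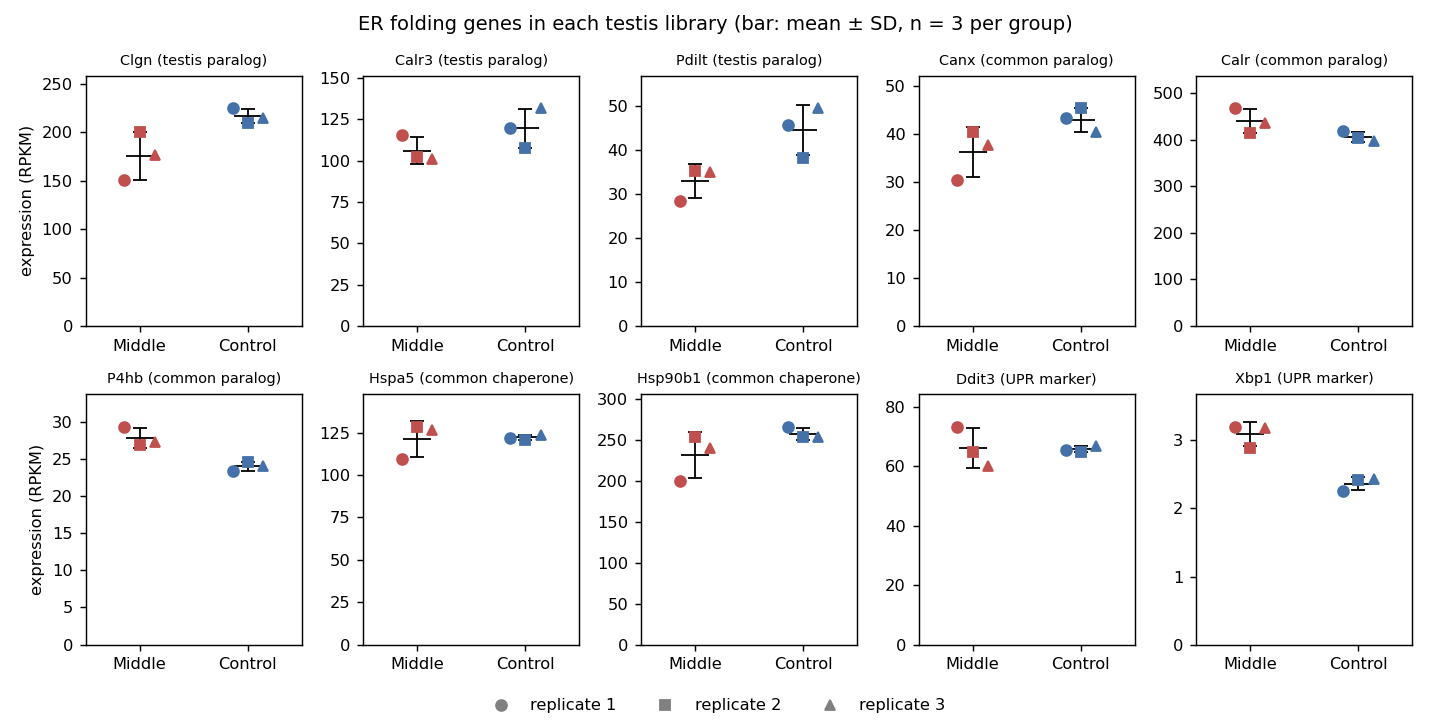
Expression in RPKM (vertical axes, each starting at 0) of the 10 ER folding genes in the 3 Middle (left, red) and 3 Control (right, blue) testis libraries; markers give the replicate and bars the mean ± SD. Clgn and Pdilt lie below every Control library in each Middle library, Xbp1 and P4hb above, and Middle replicate 1 (circles) is the lowest library for Clgn, Pdilt, Canx, Hspa5 and Hsp90b1.

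The folding genes spanned a wide range of levels. Calr was the most abundant, with a mean of 423.5 RPKM over the 6 libraries, above 99.1% of tested genes, and Xbp1 the least, with 2.73 RPKM, above 32.4%. Between them came Hsp90b1 (244 RPKM), Clgn (196), Hspa5 (122), Calr3 (113), Ddit3 (65.9), Canx (39.7), Pdilt (38.6) and P4hb (25.9). Neighbours in this order kept it in all 6 libraries except Hspa5 above Calr3 (4 of 6), Canx above Pdilt (4 of 6) and Pdilt above P4hb (5 of 6). In whole testis the calnexin type was thus read mostly from its testis form, and the calreticulin type mostly from its common form.

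Clgn encodes calmegin, the calnexin form of spermatocytes and spermatids that helps the fertilin pair of ADAM proteins form (GRCm39, chromosome 8, 84116496 to 84155181). It was at 150.5, 200.2 and 177 RPKM in Middle replicates 1 to 3 and at 224.5, 209.9 and 215 RPKM in Control replicates 1 to 3. Every Middle library lay below every Control library, and the 3 Middle libraries were spread more widely. The means were 176 ± 24.9 RPKM in Middle and 216 ± 7.41 in Control (SD, n = 3 each), a ratio of 0.812 and a log2 fold change of -0.31 (SE 0.10, adjusted p = 0.186, limma).

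Pdilt encodes a disulfide isomerase type protein of the testis that binds calmegin (chromosome 7, 119085810 to 119122712), and it showed the greatest difference of the 10. It was at 28.4, 35.1 and 34.9 RPKM in Middle and at 45.7, 38.2 and 49.3 RPKM in Control. The groups did not overlap, although Middle replicate 2 and Control replicate 2 lay close together. The means were 32.8 ± 3.85 RPKM in Middle and 44.4 ± 5.70 in Control (SD, n = 3 each), a log2 fold change of -0.42 (SE 0.12, adjusted p = 0.178, limma). Of its exonic length, 8.81% is shared with Gm37518 and 4.56% with Acsm5, both on the opposite strand and at 3.44 and 0.738 RPKM on average over the 6 libraries, and the strand setting of the counting is not stated in the sources used here.

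Calr3 encodes calsperin, the testis calreticulin that acts on ADAM3 (chromosome 8, 73178020 to 73197714). Its values were 115, 102 and 101 RPKM in Middle and 119.5, 108 and 131.5 in Control. The groups overlapped through Middle replicate 1, which lay above Control replicate 2. The log2 fold change was -0.17 (SE 0.09, adjusted p = 0.303, limma).

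Among the common partners, P4hb, the widespread protein disulfide isomerase (chromosome 11, 120451124 to 120464079), was at 29.3, 26.9 and 27.2 RPKM in Middle and at 23.4, 24.6 and 24.1 RPKM in Control. Every Middle library lay above every Control library. The means were 27.8 ± 1.29 and 24.01 ± 0.609 RPKM in Middle and Control (SD, n = 3 each), a log2 fold change of 0.20 (SE 0.06, adjusted p = 0.178, limma). Calr, the common calreticulin (chromosome 8, 85568479 to 85573563), was at 468, 416 and 437 RPKM in Middle and at 418, 405 and 397 in Control, and the groups overlapped through Middle replicate 2 (log2 fold change 0.11, SE 0.06, adjusted p = 0.324, limma).

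Canx, the common membrane-bound calnexin (chromosome 11, 50184788 to 50216500), lay on the other side. It was at 30.5, 40.5 and 37.8 RPKM in Middle and at 43.4, 45.4 and 40.4 RPKM in Control. The overlap came from Middle replicate 2 alone, which stood just above Control replicate 3. The log2 fold change was -0.25 (SE 0.11, adjusted p = 0.241, limma), and -0.13 without Middle replicate 1 (adjusted p = 0.364, limma).

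Of the general ER chaperones, Hspa5 had nearly the same mean in both groups and Hsp90b1 a lower one in Middle, with overlapping libraries. Hspa5, the ER HSP70 known as BiP that also holds the stress sensors inactive (chromosome 2, 34661982 to 34667559), was at 109, 128 and 127 RPKM in Middle and at 122, 121 and 123.5 RPKM in Control. The Middle libraries lay on both sides of the narrow Control range, and the log2 fold change of -0.01 had a 95% interval of -0.18 to 0.16 (adjusted p = 0.931, limma). Hsp90b1, the ER HSP90 known as GRP94 (chromosome 10, 86526073 to 86541373), was at 199.9, 253 and 240.03 RPKM in Middle and at 266, 253 and 253.5 in Control (a log2 difference of -0.16 with an SE of 0.09, adjusted p = 0.327 by limma). The low mean in Middle rested on replicate 1, without which the log2 fold change was -0.06. Exons of 1810014B01Rik on the opposite strand share 10.3% of its length, and those of Gm15344 and Gm54730 on the same strand share 2.08% and 3.30%. The mean levels of these genes over the 6 libraries were 95.7, 465 and 1056 RPKM, with Gm15344 and Gm54730 both above Hsp90b1 itself. How reads in the shared bases were assigned is not stated, so the level and rank of Hsp90b1 are uncertain.

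The letters that mark unfolded protein response targets were looked up in RefSeq promoters (GRCm38.p6, 250 bases before to 50 bases after each start), since these common chaperones are known targets and the testis forms are their paralogs. The ER stress response element was searched on both strands as CCAAT, then 9 bases of any kind, then CCACG. It was found in the promoters of Hspa5, Hsp90b1, Calr and Canx, 4 of the 9 folding genes with a promoter entry (Clgn had none). Among all gene symbols 37 of 27025 had it, and among all 32851 promoters 0.119%. The common chaperones were searched as known targets, so their matches are no test of enrichment. In Hsp90b1 it was found at 2 places. The Calr3 and Pdilt promoters held CCAAT, which 37.4% of all promoters hold, and no CCACG, which 32.8% hold. Below, each window is 59 bases read 5′ to 3′ on the strand that carries CCAAT, and capitals mark the CCAAT and CCACG letters of the element. In the Canx window the 9 bases between them hold a further CCACG.
Hspa5 (chr2:34772005-34772063, + strand): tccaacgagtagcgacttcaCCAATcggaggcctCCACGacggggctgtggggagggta
Hsp90b1 far (chr10:86705618-86705676, - strand): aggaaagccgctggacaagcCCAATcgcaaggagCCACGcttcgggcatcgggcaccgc
Hsp90b1 near (chr10:86705513-86705571, + strand): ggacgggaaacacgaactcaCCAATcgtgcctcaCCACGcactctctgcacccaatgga
Calr (chr8:84847055-84847113, + strand): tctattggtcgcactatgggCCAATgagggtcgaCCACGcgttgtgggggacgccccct
Canx (chr11:50325780-50325838, - strand): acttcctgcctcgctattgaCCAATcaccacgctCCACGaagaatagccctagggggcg
Calr3 start 1 (chr8:72443819-72443877, - strand): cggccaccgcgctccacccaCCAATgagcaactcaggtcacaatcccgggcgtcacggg
Calr3 start 2 (chr8:72435227-72435285, - strand): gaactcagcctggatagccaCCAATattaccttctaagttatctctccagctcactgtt
Pdilt (chr7:119523606-119523664, - strand): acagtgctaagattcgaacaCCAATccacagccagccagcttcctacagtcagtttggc

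Read side by side, the 5 upper windows carry both motifs at the fixed spacing of 9 bases and the 3 lower ones CCAAT alone. Counted from the transcription start, the element spanned positions -65 to -47 in Hspa5, -145 to -127 in Canx, -162 to -144 in Calr, and -212 to -194 and -107 to -89 in Hsp90b1. The P4hb and Ddit3 promoters held no full element, and Xbp1 held neither motif in this window, which says only that these letters are not there. A match is a description of letters and not a measured binding site. The 4 genes with the element did not share a direction in Middle, at log2 fold changes of -0.01 (Hspa5), -0.16 (Hsp90b1), 0.11 (Calr) and -0.25 (Canx). Of the other genes with the element in their promoter, 13 were tested, 7 above 0 and 6 below with a median of 0.02, next to a median of 0.03 over all tested genes. Among them Hnrnpa3, an RNA-binding protein gene, was at 107 ± 9.62 RPKM in Middle and 126 ± 7.66 in Control, and Tdrd9, a helicase gene of the piRNA pathway, at 17.8 ± 0.719 and 15.4 ± 1.05 RPKM, each without overlap and on opposite sides (log2 fold changes -0.24 and 0.20). Creld2, an ER protein gene known to answer ER stress, was the most abundant at 175 ± 11.01 RPKM in Middle and 186 ± 0.622 in Control. It was also lower in every Middle library (log2 fold change -0.09).

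**Figure D2:**
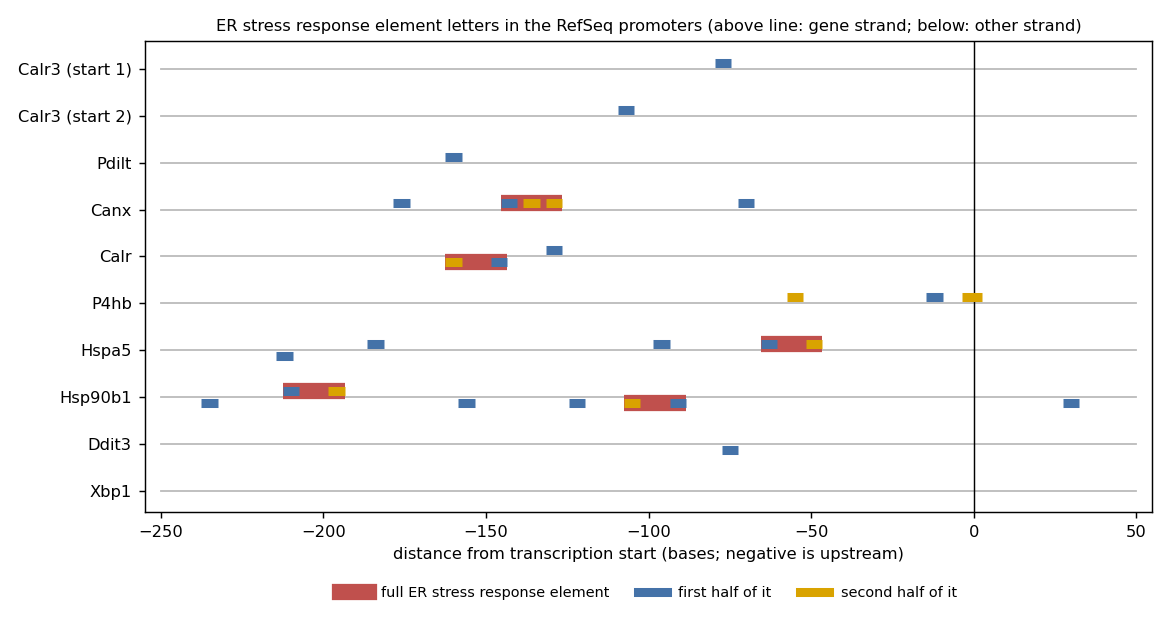
Positions of the full ER stress response element (red), CCAAT (blue) and CCACG (yellow) by distance in bases from the RefSeq transcription start, for the 9 folding genes with a promoter entry; marks above a line are on the gene's strand and marks below on the other. Full elements stand in Canx, Calr, Hspa5 and Hsp90b1, and none in Calr3, Pdilt, P4hb, Ddit3 or Xbp1.

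The markers of the unfolded protein response had unlike patterns. Xbp1, whose spliced messenger RNA gives the factor that raises ER folding genes (chromosome 11, 5470659 to 5475893), was at 3.20, 2.89 and 3.19 RPKM in Middle and at 2.25, 2.41 and 2.43 RPKM in Control. Every Middle library lay above every Control library. The means were 3.09 ± 0.174 and 2.36 ± 0.0977 RPKM in Middle and Control (SD, n = 3 each), a ratio of 1.31 and a log2 fold change of 0.28 (SE 0.07, adjusted p = 0.178, limma). The pseudocount of 1 lowers this value for so low a gene, and with a pseudocount of 0.1 it was 0.37. The table holds 1 value per gene, so spliced and unspliced Xbp1 are not told apart.

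Ddit3, the CHOP factor of lasting ER stress (chromosome 10, 127126643 to 127132157), was at 73.2, 64.9 and 60.1 RPKM in Middle and at 65.6, 64.7 and 66.9 RPKM in Control. The 3 Middle libraries spread around the Control libraries, and the log2 fold change of 0.0025 had a 95% interval of -0.18 to 0.18 (adjusted p = 0.988, limma); its sign turned under 3 other settings and without some single libraries. Its mean over the 6 libraries was 65.9 RPKM, against 2.73 RPKM for Xbp1. Of its exonic length, 3.97% is shared with Mars1 on the opposite strand.

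Without Middle replicate 1, the library that stood apart, the log2 fold changes were -0.20 for Clgn, -0.23 for Calr3, -0.32 for Pdilt, 0.07 for Calr, 0.17 for P4hb and 0.26 for Xbp1. Each kept its sign.

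**Figure D3:**
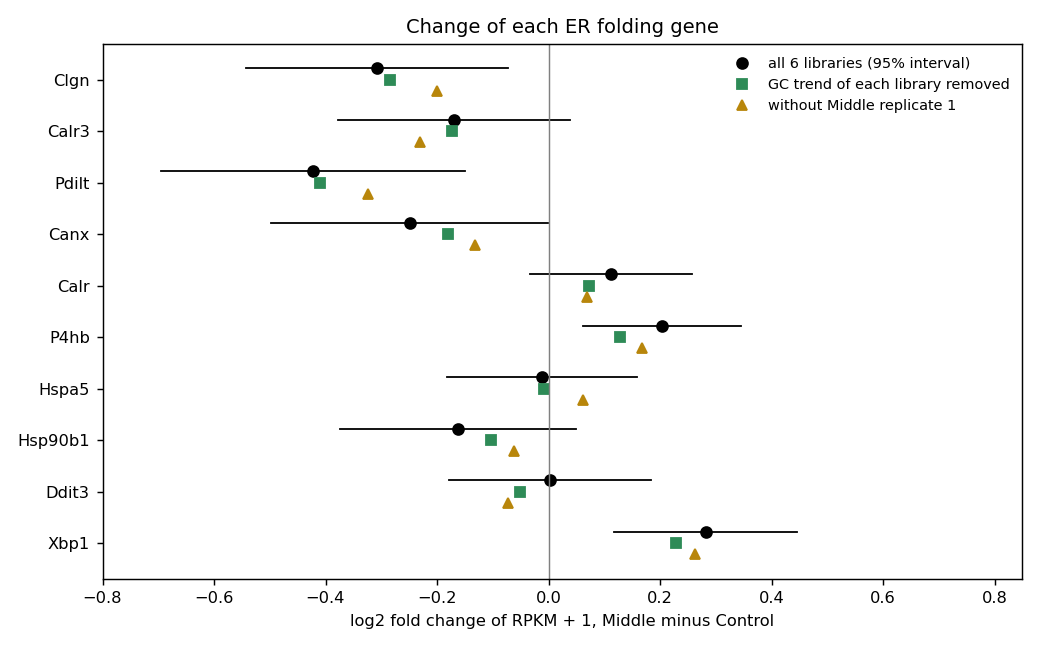
Log2 fold change of RPKM + 1, Middle minus Control (horizontal axis), for each of the 10 folding genes, with all 6 libraries (black, line: 95% interval of the limma fit), after removal of the GC trend (green) and without Middle replicate 1 (yellow). Pdilt, Clgn, P4hb and Xbp1 keep their side of 0 in all 3, at -0.42, -0.31, 0.20 and 0.28 with all libraries.

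Within a library, the testis paralog can be set against the common one, which cancels any scaling between libraries. A ratio does not cancel the trend with GC content described below. Pdilt has 46.1% GC and P4hb 54.04%. With that trend removed, their log2 fold changes were -0.41 and 0.13. Pdilt over P4hb was 0.969, 1.305 and 1.284 in Middle and 1.95, 1.55 and 2.05 in Control. Every Middle library lay below every Control library, with a mean log2 ratio of 0.23 ± 0.24 in Middle and 0.88 ± 0.21 in Control (SD, n = 3 each), a difference of -0.65. The exact permutation test gave a two-sided p of 0.10, the smallest that 3 against 3 libraries allow, and an adjusted p of 0.15 over the 3 pairs.

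Calr3 over Calr was 0.247, 0.246 and 0.2304 in Middle and 0.286, 0.266 and 0.331 in Control, again with no overlap. The log2 ratio differed by -0.28 (exact permutation test, two-sided p = 0.10, adjusted p = 0.15 over 3 pairs). Clgn over Canx was 4.94, 4.94 and 4.68 in Middle and 5.18, 4.63 and 5.32 in Control, and the groups overlapped (difference of log2 ratio -0.05, exact permutation p = 0.50, adjusted p = 0.50). Both forms of the calnexin pair had a lower mean in Middle, and in the other pairs a lower mean of the testis form stood beside a higher mean of the common one. Summed over the 3 pairs, the testis forms made up 35.8%, 41.1% and 38.3% of the RPKM in Middle and 44.5%, 42.8% and 46.2% in Control.

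**Figure D4:**
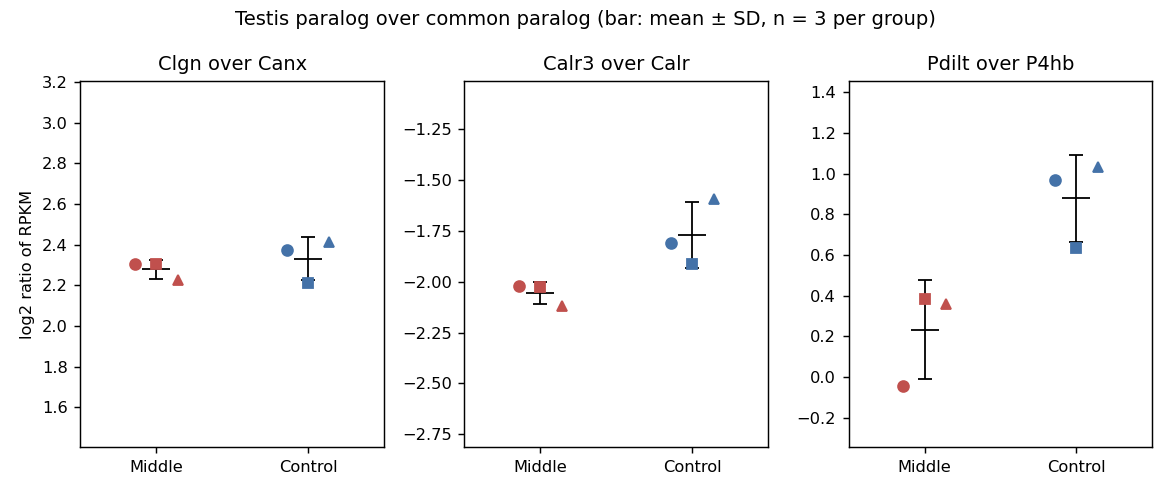
Log2 ratio of RPKM of the testis paralog over its common paralog in each Middle (left, red) and Control (right, blue) library; markers give the replicate (circle 1, square 2, triangle 3), bars the mean ± SD, and each vertical axis spans the same range. Pdilt over P4hb and Calr3 over Calr are lower in every Middle library, and Clgn over Canx overlaps.

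The wider ER folding pathway was described from lists of genes, with 0 members past the test in each list below (adjusted p over all genes, limma). Over all tested genes 8412 of 15040 lay above 0, and 7534 of 15037 with median-of-ratios scaling. Of 12 tested disulfide isomerase family genes 7 lay above 0 in Middle, with a median log2 fold change of 0.01 that was -0.02 with median-of-ratios scaling. Pdia3, the isomerase that works with calnexin and calreticulin, was the most abundant of them at 126 ± 8.20 RPKM in Middle and 125 ± 0.926 in Control (SD, n = 3 each). The isomerase relatives Txndc12 and Txndc5 were higher in each Middle library, at 38.4 ± 2.80 and 3.40 ± 0.294 RPKM in Middle against 34.05 ± 1.57 and 2.93 ± 0.0517 RPKM in Control. Of 7 tested genes of ER oxidation 5 lay above 0 (median 0.04), among them the peroxidase gene Gpx8 at 1.63 ± 0.165 RPKM in Middle and 1.17 ± 0.367 in Control, with overlap. The sulfhydryl oxidase gene Qsox2 was at 2.42 ± 0.181 and 2.17 ± 0.0728 RPKM in Middle and Control, without overlap, and the ER peroxiredoxin gene Prdx4, the most abundant of the list, at 22.3 ± 3.52 and 22.05 ± 0.541 RPKM.

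Partners and relatives of BiP had 12 of 14 tested genes above 0, with a median of 0.03, the same as that of all tested genes to 2 decimals. With median-of-ratios scaling 8 of the 14 lay above 0. Sil1, which exchanges the nucleotide of BiP, was at 52.7 ± 2.71 RPKM in Middle and 52.5 ± 1.62 in Control. Cnpy3, a chaperone partner of GRP94, was at 15.9 ± 1.93 and 13.3 ± 1.03 RPKM in Middle and Control, without overlap, as was Mesd, a chaperone of LDL receptor type proteins, at 29.9 ± 1.52 and 27.1 ± 0.660 RPKM. Of 11 genes of the glycan cycle that feeds calnexin and calreticulin 9 lay above 0 (median 0.03). Removal of the GC trend left 6 of the 11 above 0. Prkcsh, a subunit of glucosidase II, was at 26.3 ± 3.74 RPKM in Middle and 22.7 ± 1.02 in Control, Selenof, a partner of the glucosyltransferase that returns glycoproteins to the cycle, at 17.996 ± 1.48 and 16.2 ± 0.855 RPKM, and Mlec, which binds glucosylated chains, at 25.0 ± 2.20 and 26.6 ± 0.490 RPKM, all with overlap. Of 10 tested genes of N-glycan transfer by the oligosaccharyltransferase 8 lay above 0 (median 0.05). In this complex Rpn1 was at 60.7 ± 2.99 RPKM in Middle and 53.2 ± 1.85 in Control and Ddost at 24.3 ± 0.858 and 21.4 ± 1.23, both without overlap, while the catalytic subunit Stt3b was at 76.4 ± 6.43 and 84.5 ± 0.897 RPKM, lower in every Middle library.

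Of 21 tested genes of ER-associated degradation, which removes misfolded proteins, 14 lay above 0 (median 0.05). The widest differences among these ER lists stood here and ran opposite ways. Ube2j2, a ubiquitin-conjugating enzyme of the ER membrane, was at 38.9, 49.7 and 40.6 RPKM in Middle and 31.5, 31.97 and 30.9 in Control (log2 fold change 0.43, SE 0.09, adjusted p = 0.178, limma). Sel1l2, a relative of the degradation adaptor Sel1l, was at 10.2, 14.3 and 12.9 RPKM in Middle and 17.8, 17.9 and 16.1 in Control (log2 fold change -0.45, SE 0.12, adjusted p = 0.178, limma). Middle and Control were apart for both genes. Ube2j1, a relative of Ube2j2 and the most abundant of the list, was at 110.0 ± 0.920 RPKM in Middle and 119 ± 5.21 in Control, lower in every Middle library. The translocon list, through which new chains enter the ER, had 8 of 15 above 0 (median 0.02), and its signal peptidase subunit Sec11a was at 16.02 ± 1.70 RPKM in Middle and 13.6 ± 0.506 in Control. Another signal peptidase subunit gene, Spcs2, was lower in every Middle library, at 48.7 ± 0.637 RPKM in Middle and 52.9 ± 2.97 in Control (log2 fold changes 0.22 for Sec11a and -0.12 for Spcs2).

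Sensors and factors of the unfolded protein response had 7 of 9 tested genes above 0 (median 0.07), or 5 of 9 with median-of-ratios scaling. In 4 of the 9, or 44.4%, every Middle library was the higher, against 17.9% of all tested genes. Among these, Creb3, a membrane-bound transcription factor gene, was at 15.5 ± 1.80 RPKM in Middle and 13.3 ± 0.777 in Control, and Atf6b, the relative of the sensor gene Atf6, at 3.49 ± 0.0808 and 2.96 ± 0.363 RPKM (adjusted p = 0.249 and 0.256, limma). Of 13 listed targets of ATF4 and CHOP only 6 passed the filter, and 4 of these 6 lay above 0. Their median was 0.13, or 0.08 with the GC trend removed. Ppp1r15a, the phosphatase subunit that ends the translation block, was at 6.21 ± 0.725 RPKM in Middle and 5.14 ± 0.214 in Control, without overlap. Phgdh, an enzyme of serine synthesis, was at 8.47 ± 1.45 and 6.86 ± 0.743 RPKM in Middle and Control, also without overlap. Asns, an amino acid synthesis target of ATF4, was at 34.1 ± 2.79 and 34.8 ± 1.72 RPKM in Middle and Control. Creb3l4, an ER membrane factor of spermatids, was the most abundant of the sensors and factors, at 169 ± 7.19 RPKM in Middle and 184 ± 10.5 in Control, with overlap. The sensor genes Ern1 (IRE1) and Eif2ak3 (PERK) were under the filter, at 0.609 ± 0.0521 and 0.396 ± 0.0676 RPKM in Middle and 0.484 ± 0.0456 and 0.359 ± 0.0673 in Control (SD, n = 3 each). Ern1 was higher in every Middle library, at 0.659, 0.614 and 0.555 RPKM in Middle and 0.458, 0.536 and 0.457 in Control, and Eif2ak3 overlapped.

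ADAM proteins are the best known substrates of the testis chaperones: ADAM2 and ADAM3 of mouse sperm depend on calmegin, calsperin or PDILT for their folding. All 11 listed ADAM genes of the testis lay below 0 in Middle, with a median log2 fold change of -0.31 against 0.03 over all tested genes. In 8 of the 11 every Middle library lay below every Control library, where 11.4% of tested genes were lower without overlap. None passed the test (smallest adjusted p = 0.0896, limma, for Adam6b). Without Middle replicate 1 all 11 again lay below 0, with a median of -0.22 and 8 without overlap, where 14.8% of tested genes were lower without overlap. The list was chosen with earlier results of these data known, so these counts only describe the listed genes.

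Adam3, the protein missing from sperm of males without Calr3 or Pdilt, was at 93.9, 129.8 and 95.1 RPKM in Middle and 136, 127 and 127.5 in Control. Middle replicate 2 lay among the Control libraries and the other two far below them (log2 fold change -0.30, SE 0.12, adjusted p = 0.226, limma). Adam1b, which pairs with ADAM2 on sperm, was at 39.6, 51.2 and 47.3 RPKM in Middle and 57.8, 56.1 and 56.1 in Control, without overlap (log2 fold change -0.30). Adam2 itself was at 63.6, 64.1 and 63.9 RPKM in Middle and 65.2, 65.0 and 65.6 in Control, a log2 fold change of -0.03. The members of this fertilin pair thus stood at different distances from Control.

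Adam6b was at 5.99, 6.63 and 7.07 RPKM in Middle and 9.89, 10.1 and 9.71 in Control, and Adam6a at 10.6, 9.69 and 11.01 RPKM in Middle and 13.8, 13.2 and 14.1 in Control. Both were lower in every Middle library, with log2 fold changes of -0.53 (SE 0.07) and -0.36 (SE 0.07). Several of these genes have related copies in the mouse, among them the like-named Adam6a and Adam6b and Adam1a and Adam1b, and how reads common to both copies were assigned is not stated and was not measured here. Adam24 was at 11.1 ± 2.71 and 16.6 ± 0.904 RPKM in Middle and Control, without overlap. Adam5, the most abundant at 213 ± 33.2 RPKM in Middle and 245 ± 6.87 in Control, overlapped.

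Genes listed for sperm migration and ADAM3 maturation were split, with 4 of 10 tested above 0 and a median of -0.06. Tex101 and Ly6k, partner surface proteins needed for ADAM3 on mouse sperm, were higher in every Middle library, at 42.2 ± 5.54 and 54.2 ± 4.52 RPKM in Middle against 32.7 ± 2.85 and 44.6 ± 2.08 RPKM in Control (log2 fold changes 0.36 and 0.27, adjusted p = 0.178 each, limma). Pmis2, needed for mouse sperm to enter the oviduct, was at 45.3 ± 1.69 RPKM in Middle and 57.1 ± 1.71 in Control, and Tmem190 at 50.1 ± 3.26 and 63.7 ± 7.05, both lower without overlap (log2 fold changes -0.33 and -0.34). Cmtm2b, the most abundant of the list, was at 422 ± 36.2 RPKM in Middle and 469 ± 15.0 in Control, with overlap.

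**Figure D5:**
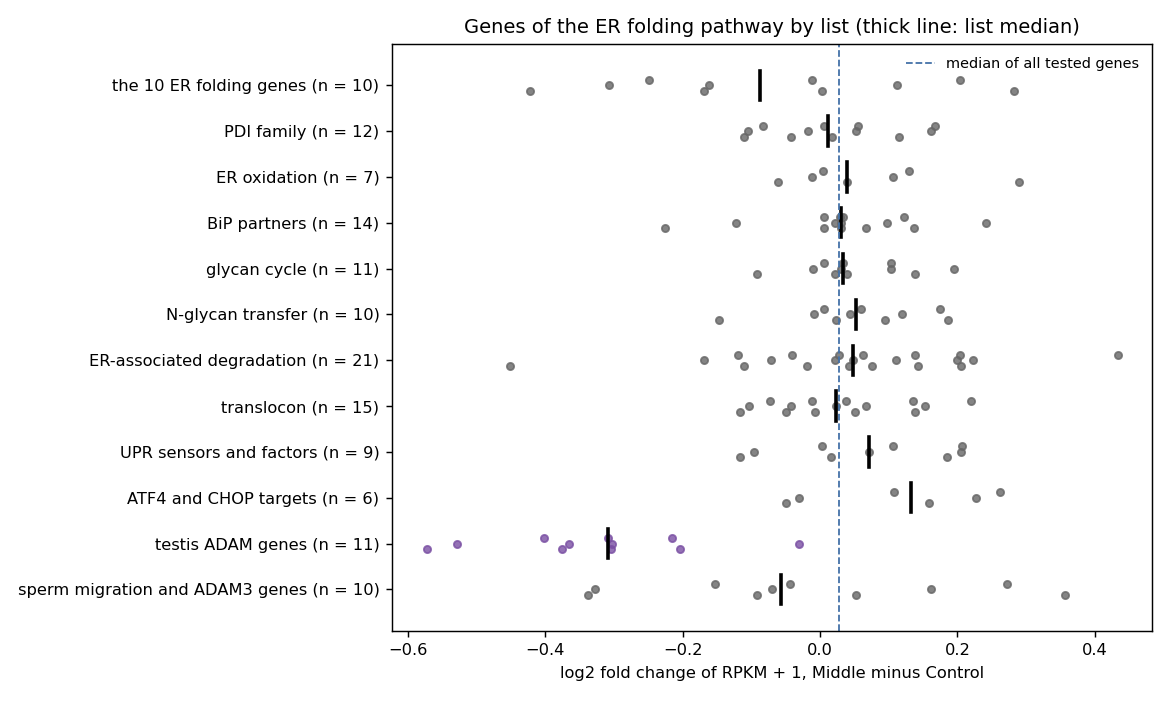
Log2 fold change of RPKM + 1, Middle minus Control (horizontal axis), of each tested gene in the 10 folding genes and in the pathway lists; thick lines are list medians and the dashed line the median of all tested genes, 0.03. The 11 listed testis ADAM genes (purple) all lie below 0, and the other lists spread around it.

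The testis paralogs and the ADAM genes belong to germ cells, and markers of these cells are given for the same comparison. None of the tested markers passed the test (adjusted p over all genes, limma). The 16 round spermatid markers summed to 1152 to 1191 RPKM in Middle and 1239 to 1284 in Control, and 11 of 16 lay below 0 (median -0.12). The 15 elongating spermatid markers summed to 30370 to 32806 and 32171 to 35435 RPKM in Middle and Control, with overlap. Of them 11 lay below 0 (median -0.11). The 14 spermatocyte markers summed to 3572 to 3636 and 3654 to 3667 RPKM and were split, with 6 above 0 and 8 below (median -0.05). Of these 14, 3 were higher and 3 lower in every Middle library. Lower without overlap were 31.25% of the round and 33.3% of the elongating spermatid markers, against 11.4% of all tested genes. Higher without overlap were 6.25% and 0%, against 17.9%. Sertoli cell markers summed to 341 to 368 RPKM in Middle and 321 to 331 in Control, with 11 of 12 above 0 (median 0.16). Of the 12, 3 (25%) were higher without overlap, against 17.9% of all tested genes. Removal of the GC trend left 10 of the 12 above 0, with a median of 0.07. The round and elongating spermatid medians were then -0.13 and -0.17. In whole testis, fewer cells of a type and less RNA per cell cannot be told apart, and the part of these markers in the results was not tested.

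Of the other marker lists, Leydig cell markers summed to 303 to 336 RPKM in Middle and 274 to 329 in Control, with 5 of 8 tested above 0. Most of this sum was Insl3, at 237 and 213 RPKM on average in Middle and Control. Peritubular cell markers summed to 191 to 223 and 204 to 227 RPKM, with 6 of 7 above 0. Most of that sum was Actg2, the only one below 0, at 140 and 160 RPKM on average in Middle and Control. Macrophage markers summed to 24.1 to 27.01 and 21.5 to 26.9 RPKM, with 5 of 7 above 0. Spermatogonium markers summed to 166 to 212 and 209.6 to 212 RPKM, with 3 of 5 above 0. Most of it was Ddx4, at 153 and 174 RPKM on average in Middle and Control and lower in every Middle library. Endothelial markers came to 1.92 to 2.23 and 1.60 to 1.93 RPKM in all, and blood markers to 12.1 to 17.2 and 11.1 to 13.8. Of 8 epididymis markers 4 were in the table, and they summed to 250.1 to 314 RPKM in Middle and 291 to 316 in Control. Nearly all of that sum was Cst8, the only one tested, at 278 and 307 RPKM on average in Middle and Control, while Crisp1 and Adam7 were under 0.2 RPKM in every library.

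The GC content of transcripts also moved with the groups. Over 14003 genes, the Spearman correlation between GC content and how far each gene stood from its 6-library mean was 0.466, 0.0208 and -0.0714 in Middle replicates 1 to 3 and -0.305, -0.225 and -0.256 in Control replicates 1 to 3. No Middle value lay within the Control range, and GC trend and group cannot be told apart. The median log2 fold change was -0.05, 0.03 and 0.09 among the 4668, 4667 and 4668 genes of low, middle and high GC content. Clgn (45.4% GC), Pdilt (46.1%), Canx (42.4%) and Hsp90b1 (42.9%) were in the low class, P4hb (54.04%) in the high class and the other 5 between. After removal of this trend within libraries, the log2 fold changes were -0.28 for Clgn, -0.41 for Pdilt and -0.18 for Canx. They were 0.13 for P4hb and 0.23 for Xbp1 (adjusted p 0.150 to 0.262 for all of these, limma). All 11 ADAM genes stayed below 0 with a median of -0.32. Over all tested genes 7187 of 14003 then lay above 0. So did 7 of 12 disulfide isomerase family genes, 4 of 6 genes of ER oxidation and 8 of 14 BiP partners. The glycan cycle had 6 of 11, N-glycan transfer 8 of 10, degradation 12 of 21 and the translocon 10 of 15. Sensors and factors had 7 of 9 above 0, and ATF4 and CHOP targets 4 of 6.

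The 3 genes whose pattern over the 6 libraries was closest to the mean pattern of Clgn, Calr3 and Pdilt were 4930562F07Rik, Prss59 and Gm11608. Their root mean square difference from it was 0.026, 0.028 and 0.032 on the log2 scale, against a median of 0.21 over 5122 genes at 10 RPKM or more on average. They were picked as the smallest of these differences. Clgn, Pdilt and Calr3 themselves stood farther from their mean pattern, at 0.088, 0.090 and 0.130. Prss59 was at 28.6, 33.3 and 32.7 RPKM in Middle and 39.5, 35.9 and 40.6 in Control, so its lowest library was Middle replicate 1 and its lowest Control library replicate 2, as for Clgn and Pdilt.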

How the data were processed

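Total RNA of mouse testis was extracted with Trizol and made into mRNA libraries, per the labels' protocols. The submitters' processing notes name fastp 0.23.0 and the build GRCm39, and no source used here states the aligner, the counting program or the strand setting. The authors deposited RPKM values computed per gene and library, with gene coordinates and lengths per the file headers. Multiplied by gene length, 100% of values were whole multiples of 1 step per library (tolerance 0.001), which gave the reads. Of genes with few reads, 73.3% to 74.7% per library held an even number. Without molecular identifiers, reads are not independent molecules.

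Values were taken as log2(RPKM + 1), so fold changes of low genes are understated. Genes averaging 1 RPKM or more in either group (15040) were fitted with limma 3.58.1 (R 4.3.3) with a variance trend, Middle minus Control. Two-sided p-values were adjusted by Benjamini-Hochberg over all of them, with 0.05 as the threshold. The fit was tested on simulated data with the same spread in all libraries and neither an outlying library nor a GC trend. That test cannot show how the fit behaves on data that hold both. Ratios of paralogs were compared with an exact permutation test (scipy 1.17.1). Libraries of a group differed by more than sampling noise and each counted as 1 replicate. Replicate numbers have no stated meaning, so the main fit did not pair the libraries by them. The 10 genes and all lists were chosen with earlier results of these data known. Named genes were the 10 genes, and from each list the 2 with the smallest p and the most abundant one, and the 3 genes nearest in pattern to the testis paralogs. Adam1a, Adam1b, Adam2, Adam3, Adam24, Tex101, Ly6k, Ern1, Eif2ak3 and the marker genes fall outside that rule and were named after their values were seen. GC content came from GENCODE M21 transcripts by symbol (93.1% of tested genes), promoters from RefSeq (GRCm38.p6), and no coordinate was moved between builds. Alternatives are given in the closing section.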

Additional observations from a re-analysis of the deposited data

How the results depend on the processing

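No folding gene passed the test under any of the 14 alternatives run: 2 other scalings, a pseudocount of 0.1, no filter, a filter of 5 RPKM (which left out Xbp1), limma-voom on the recovered reads, the replicate block, removal of the GC trend and leaving out each library. The smallest adjusted p was 0.105, for Clgn without Middle replicate 2 (limma). Clgn (-0.41 to -0.20), Pdilt (-0.53 to -0.32), Calr3 (-0.24 to -0.10), Canx (-0.33 to -0.13), Hsp90b1 (-0.23 to -0.06), Calr (0.07 to 0.15), P4hb (0.13 to 0.23) and Xbp1 (0.23 to 0.39) kept their sign in log2 fold change in all of them. Ddit3 (0.0025) was at -0.0300 with median-of-ratios scaling, -0.0177 with upper-quartile scaling and -0.0508 with the GC trend removed, and ran from -0.0724 to 0.0673 as single libraries were left out. Hspa5 ran from -0.0536 to 0.0616 in the same way and was above 0 only without Middle replicate 1. The cause was not tested. Over all genes, 8 passed in the fit as described, 0 with no filter, 0 with the replicate block and 0 to 3 with a library left out. With an unadjusted p under 0.05, 1760 genes were higher and 1356 lower, against 1260 and 1710 with median-of-ratios scaling.

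Differences of the log2 paralog ratios kept their sign, from -0.77 to -0.51 for Pdilt over P4hb, -0.35 to -0.19 for Calr3 over Calr and -0.11 to -0.01 for Clgn over Canx as libraries were left out. With the GC trend removed these differences kept their sign as well. With the replicate block, same-numbered pairs gave an exact sign-flip p of 0.25 for Pdilt and Calr3 and 0.75 for Clgn, where 3 pairs allow 0.25 at the least. The deviations of same-numbered libraries from their group means correlated at -0.153, -0.119 and 0.00544. With 3 libraries centred in each group, such values cannot settle whether the numbers pair the libraries. Adam6b passed with limma-voom on the recovered reads (adjusted p = 0.0497) and had 0.0571 to 0.433 under the other alternatives. The lowest read number of a folding gene in a library was 306, for Xbp1, so counting error is relatively largest there; how depth bears on the calls was not tested.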
